A study of Mus musculus with 6 samples.

Results

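Matrix metalloproteinases (MMPs), the related ADAM, ADAMTS and ADAMTS-like genes, and the tissue inhibitors of metalloproteinases (TIMPs) were followed in mouse bone marrow-derived macrophages (BMMs) on the way to becoming osteoclasts. Members were taken by symbol alone, as every Mmp, Adam, Adamts, Adamtsl or Timp gene with a number. The rule found 47 of the 15982 genes of the authors' deposited table, made up of 14 MMPs, 14 ADAMs, 16 ADAMTS or ADAMTS-like genes and 3 TIMPs.

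The cells called Bub1 cKO came from mice with a deletion of Bub1, a kinase of the mitotic checkpoint, in myeloid cells only, and the Ctrl cells came from control mice. The sources used here do not give the Cre driver, the control genotype or the age of the mice. Both groups were first grown for 3 days with the macrophage growth factor M-CSF (20 ng/ml). Osteoclast formation was then induced for 2 days by adding RANKL (50 ng/ml) to the same dose of M-CSF. The labels list 3 libraries per genotype, made with a 3' tag kit from 25 ng of total RNA, and do not say whether they came from separate animals or cultures, so that the p-values measure a spread between libraries that may be technical. The authors' deposited table holds 1 value per gene and genotype, and values per library were not used here. These values are read as TPM, a level per transcript length, from the sum of each column, although CPM would sum alike. Counts of 3' tags do not grow with transcript length, so dividing them by length would distort levels between genes. Shares, ranks and ratios between different genes below are therefore uncertain.

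MMPs are zinc-dependent endopeptidases that are made as inactive proenzymes and cut collagens, elastin and other matrix proteins outside the cell. ADAMs are mostly membrane-anchored and release the outer parts of cytokines, receptors and adhesion molecules, a process called shedding. ADAMTS proteases are secreted and carry thrombospondin repeats, and ADAMTS-like proteins share those repeats but have no protease domain. TIMPs block the active site of MMPs and of some ADAMs. In bone, osteoclasts are known as a rich source of MMP9, and MMP14 is known from their adhesion and resorption zones.

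The coding sequences of all 47 members (GENCODE M21, GRCm38) were searched in frame for the zinc-binding consensus of metalloproteases, 11 codons of which the capitals below show the 3 for histidine and those for the glutamate and the glycine. It was found in 14 of 14 MMPs, 10 of 14 ADAMs, 9 of 16 ADAMTS and ADAMTS-like genes and 0 of 3 TIMPs, against 0.316% of 21817 protein-coding genes. The ADAMs without it were Adam2, Adam4, Adam22 and Adam23. All 4 ADAMTS-like genes lacked it, as did Adamts1, Adamts4 and Adamts9, and no match says only that this pattern of codons is not there. Of the 15 members with a mean of at least 1 TPM, 12 had it. The sites of the proteases on which the values below turn are shown 5′ to 3′ in the coding direction, with the 5 defining codons in capitals.
Mmp12: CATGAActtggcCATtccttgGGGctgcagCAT
Mmp14: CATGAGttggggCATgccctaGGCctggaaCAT
Mmp9: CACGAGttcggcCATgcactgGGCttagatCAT
Adam15: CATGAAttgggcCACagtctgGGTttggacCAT
Adam10: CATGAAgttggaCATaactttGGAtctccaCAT
Adam17: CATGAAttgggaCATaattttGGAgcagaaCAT
Among the 12 expressed proteases, pairs of sites had between 17 and 26 identical bases of 33, of which the pattern itself fixes 10. The closest pair was Adam10 and Adam17, the main sheddases of leukocytes, with 26, while Mmp12 and Mmp14 had 23.

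The promoters of Mmp12 and Mmp14 are shown because these members had the smallest p-values. Each window holds the 250 bases before an annotated RefSeq start (GRCm38.p6), and capitals mark a match to the AP-1 motif TGANTCA on either strand. The Mmp12 window runs over chr9:7347124-7347373 on the plus strand and the Mmp14 window over chr14:54431348-54431597 on the plus strand.
Mmp12: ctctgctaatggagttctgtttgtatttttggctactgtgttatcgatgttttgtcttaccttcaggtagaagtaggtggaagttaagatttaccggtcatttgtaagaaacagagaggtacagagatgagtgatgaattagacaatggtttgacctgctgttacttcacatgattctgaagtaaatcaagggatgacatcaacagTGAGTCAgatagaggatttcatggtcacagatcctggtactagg
Mmp14: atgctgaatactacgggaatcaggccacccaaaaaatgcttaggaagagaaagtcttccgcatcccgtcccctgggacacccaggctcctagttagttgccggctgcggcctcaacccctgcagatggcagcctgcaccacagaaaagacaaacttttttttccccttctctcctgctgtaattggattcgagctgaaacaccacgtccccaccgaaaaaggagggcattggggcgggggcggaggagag
The Mmp12 window holds TGAGTCA with its first base at -44 from that start. That start lies inside the gene as GENCODE M21 gives it, from 7344381, the start used for the distances below. A second RefSeq start of Mmp12, whose window of chr9:7344147-7344396 reaches 7344381, has no such match, and neither has Mmp14. RefSeq promoters were matched for 30 members, with 33 windows. AP-1 matches stood in 4 of the 33 (12.1%), those of Mmp12, Mmp3, Mmp13 and Adam19, against 6.75% of all 32851 windows. The letters GGAAA, the core bound by NFAT factors, stood in 13 of the 33 windows, Mmp14 included, against 55.6% of all windows. A match is a description of letters and not evidence of binding.

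By adjusted p, with a threshold of 0.05, the authors' deposited table calls 0 of the 47 members, against 0.181% of all 15982 genes (0.113% higher, 0.0688% lower). By unadjusted p it has 2 members under 0.05, Mmp12 and Mmp14, both higher in Bub1 cKO. That is 4.26% of the 47 members, against 4.81% of all genes (2.35% higher and 2.46% lower), so the count of members is near the background. These 2 are 13.3% of the 15 members that averaged 1 TPM or more, against 6.27% of the 10881 genes as abundant. Mmp19 reached that mean through Bub1 cKO, as its Ctrl value is 0.957 TPM in the authors' deposited table. The other 14 were above it in both genotypes. In bulk RNA, fewer cells that make a transcript and less transcript per cell cannot be told apart.

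**Figure D1:**
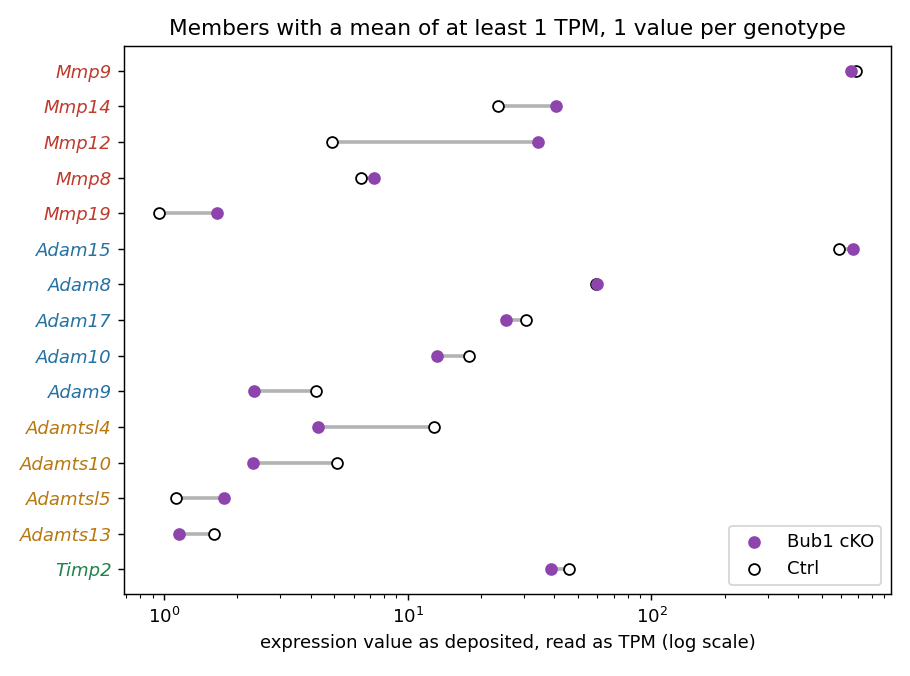
Expression values of the 15 members with a mean of at least 1 TPM in the authors' deposited table, on a log axis, with filled points for Bub1 cKO and open points for Ctrl (1 value per genotype, no error). The widest gap between genotypes is that of Mmp12, at 34.3 TPM in Bub1 cKO and 4.89 TPM in Ctrl, while Mmp9 and Adam8 nearly coincide.

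The summed level of the members was 1569 TPM in Bub1 cKO and 1495 TPM in Ctrl in the authors' deposited table. Mmp9 and Adam15 alone made up 84.7% of this sum in Bub1 cKO and 85.2% in Ctrl. These shares and the order of the members hold only for the values as deposited, in which transcript length may weigh. On this scale, a level per transcript length if the values are TPM, Mmp9 and Adam15 lay above 98.5% and 98.4% of all genes of the table, or level with them. The order below them by mean level was Adam8, Timp2, Mmp14, Adam17, Mmp12 and Adam10, all with a mean above 10 TPM. Mmp12 had such a mean only through Bub1 cKO, as its Ctrl value was 4.89 TPM. In Ctrl Mmp12 was lower than Adamtsl4, Mmp8 and Adamts10, and in Bub1 cKO it was higher than Adam17. With no values per library, which neighbours in this order differ beyond their spread could not be tested.

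Among MMPs, Mmp12 had the smallest p. Mmp12 (ENSMUSG00000049723.14, chromosome 9, 7344381 to 7369499 on the plus strand, GRCm38) encodes macrophage elastase, a secreted protease of macrophages that cuts elastin. It stood at 34.3 TPM in Bub1 cKO and 4.89 TPM in Ctrl in the authors' deposited table, a ratio of 7.01. On the log2 scale the change in the authors' deposited table was 2.58, with p = 0.00039 before and p = 0.132 after adjustment. By p it ranked 47 of the 15982 genes. Its p became 0.0923 when the adjustment was repeated over the genes at or above 1 TPM. If the statistic is a change divided by its standard error, which the sources used here do not state, their product is the change that the authors' test itself estimated. This was smaller, at 1.64 on the log2 scale with a standard error of 0.463. Its 95% interval of 0.73 to 2.55 ends just under the log2 change of the group values, so for Mmp12 the size of the difference depends on which of these is read. The sources used here do not say whether 1 quantification lies behind both.

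Mmp14 (ENSMUSG00000000957.11, chromosome 14, 54431612 to 54445364 on the plus strand, GRCm38) encodes the membrane-type collagenase MT1-MMP, which cuts matrix at the cell surface and activates pro-MMP2 in a complex with TIMP2. It had 40.4 TPM in Bub1 cKO and 23.5 TPM in Ctrl in the authors' deposited table, a ratio of 1.72. Here the log2 change of 0.76 and the test's own change of 0.80 lay close together, and the authors' deposited table gives a standard error of 0.276 and p = 0.004 before, p = 0.445 after adjustment. The 95% interval was 0.26 to 1.34. Its partner Timp2, an inhibitor that also docks pro-MMP2 on MT1-MMP, was at 38.7 TPM in Bub1 cKO and 45.9 TPM in Ctrl in the authors' deposited table (log2 change -0.24, unadjusted p = 0.241). Mmp14 was thus 1.04 times Timp2 in Bub1 cKO and 0.512 times Timp2 in Ctrl in the authors' deposited table, a difference in ratio for which no test could be run. Mmp2, the gelatinase that this pair activates, was at 0.239 TPM in Bub1 cKO and listed at 0 in Ctrl in the authors' deposited table. Its standard error of 3.97 on the log2 scale leaves its direction unknown.

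Mmp9, the gelatinase typical of osteoclasts, showed no detectable difference. It had 657 TPM in Bub1 cKO and 688 TPM in Ctrl in the authors' deposited table. The test's own log2 change was -0.06 with a 95% interval of -0.33 to 0.20, so a change as large as that of Mmp14 lies outside the interval. Mmp8, the collagenase of neutrophils, had 7.27 TPM in Bub1 cKO and 6.44 TPM in Ctrl in the authors' deposited table, with an interval of -0.90 to 1.28. Mmp19, a secreted MMP, had 1.66 TPM in Bub1 cKO and 0.957 TPM in Ctrl in the authors' deposited table, with an interval of -0.89 to 2.50. Both intervals hold a change as large as that of Mmp14 in either direction, which could therefore have been missed. Of the 5 MMPs with a mean of at least 1 TPM, 4 had a positive statistic and 1, Mmp9, a negative one, with a median log2 change of 0.44 in the authors' deposited table. Over all 10881 genes at that level 5397 statistics were positive, and the median log2 change was -0.01. The MMP median is the value of Mmp19 itself, which is also 1 of the 4 with a positive statistic. As Mmp19 is among the 5 only through its Bub1 cKO value, this median and count lean to the higher side.

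**Figure D2:**
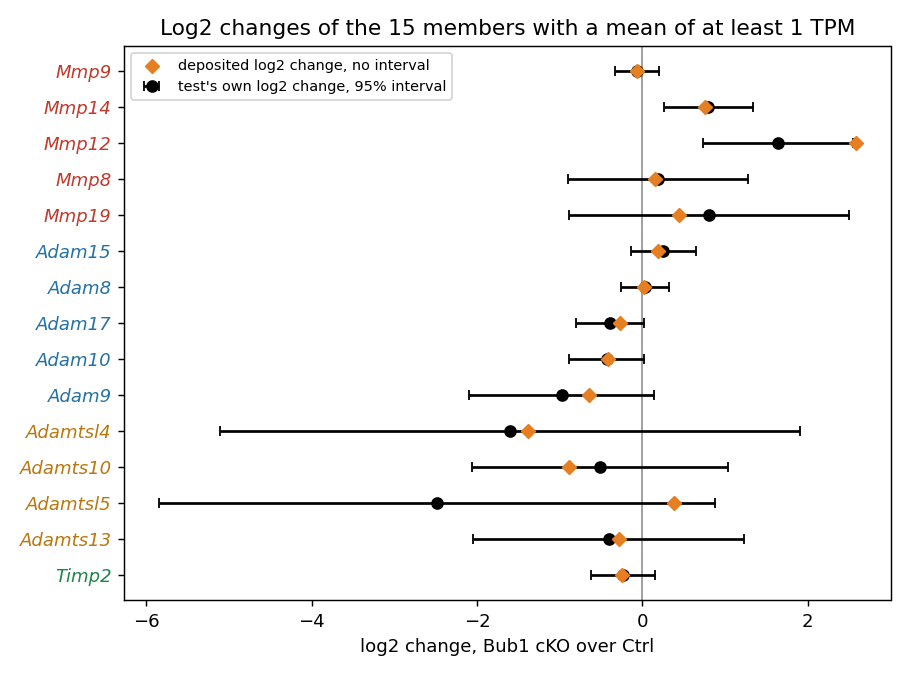
Log2 change of Bub1 cKO over Ctrl for the same 15 members, with black points for the test's own change (statistic times standard error), bars for its 95% interval, and orange diamonds for the deposited log2 change of the group values. Only the intervals of Mmp12 (0.73 to 2.55) and Mmp14 (0.26 to 1.34) exclude 0, and Adamtsl5 has its diamond and its point on opposite sides of 0.

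Mmp12 lies in a cluster of MMP genes on chromosome 9 in which 10 are annotated (GENCODE M21) and 5 are in the authors' deposited table. Over a span of 309 kb these are Mmp13, Mmp12, Mmp3, Mmp8 and Mmp27. Mmp13, a collagenase whose start is 71.9 kb before that of Mmp12, had 0.41 TPM in Bub1 cKO and 0.442 TPM in Ctrl in the authors' deposited table. Mmp3, a stromelysin that starts 101 kb after it, was listed at 0 in Bub1 cKO and had 0.07 TPM in Ctrl in the authors' deposited table. Mmp27, which starts 227 kb after it, had 0.307 TPM in Bub1 cKO and 0.828 TPM in Ctrl in the authors' deposited table. Thus 3 of the 4 neighbours were below 1 TPM in both genotypes, and the remaining one, Mmp8, is described above. The windows of Mmp3 and Mmp13 hold an AP-1 match like that of Mmp12, shown above, and both were below 1 TPM in these cells.

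**Figure D3:**
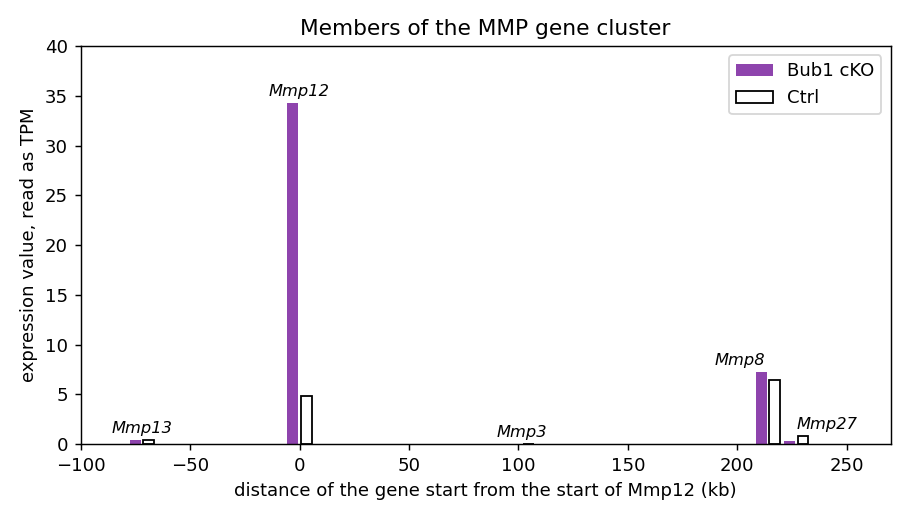
Expression values in the authors' deposited table of the 5 members of the MMP cluster, placed by the distance of their start from that of Mmp12 in kb, with filled bars for Bub1 cKO and open bars for Ctrl (1 value each, no error). Mmp12 stands at 34.3 TPM in Bub1 cKO and 4.89 TPM in Ctrl, Mmp8 at 7.27 TPM in Bub1 cKO and 6.44 TPM in Ctrl, and Mmp13, Mmp3 and Mmp27 below 1 TPM.

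The ADAM proteases held both the second most abundant member and the members nearest to the threshold on the lower side. Adam15, a membrane protease with a disintegrin domain that binds integrins, had 671 TPM in Bub1 cKO and 587 TPM in Ctrl in the authors' deposited table (unadjusted p = 0.209). The interval of its test's own log2 change was -0.14 to 0.65. Adam8, which is known to support the formation of osteoclasts, had 59.8 TPM in Bub1 cKO and 59.0 TPM in Ctrl in the authors' deposited table, with an interval of -0.26 to 0.33. For Adam8 the genotypes thus differed by less than the standard error of 0.15.

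Of the 5 ADAM proteases with a mean of at least 1 TPM, 2 had positive statistics, Adam15 and Adam8, and 3 negative ones. The 3, Adam10, Adam17 and Adam9, had lower values in Bub1 cKO, and none reached an unadjusted p under 0.05. Adam10, which starts Notch signalling and sheds many surface proteins, had 13.1 TPM in Bub1 cKO and 17.9 TPM in Ctrl in the authors' deposited table (log2 change -0.42, unadjusted p = 0.063). Adam17, the enzyme that releases TNF, had 25.3 TPM in Bub1 cKO and 30.6 TPM in Ctrl in the authors' deposited table (log2 change -0.26, unadjusted p = 0.065). Adam9, another membrane protease, had 2.34 TPM in Bub1 cKO and 4.23 TPM in Ctrl in the authors' deposited table (log2 change -0.65, unadjusted p = 0.088). After adjustment p was 0.985 for each of these 3 in the authors' deposited table. The intervals of the test's own log2 change were -0.89 to 0.02 for Adam10, -0.81 to 0.03 for Adam17 and -2.10 to 0.15 for Adam9, so a rise of more than 0.15 on the log2 scale lies outside all 3. Adam17 overlaps Iah1 on the opposite strand by 311 bases, and Mmp19 overlaps Tmem198b by 789 bases. The sources used here do not say whether counting used strand.

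The ADAMTS and ADAMTS-like genes were low, and the 4 with a mean of at least 1 TPM all had a negative statistic without passing any threshold. Adamtsl4, a microfibril-associated protein, had 4.30 TPM in Bub1 cKO and 12.8 TPM in Ctrl in the authors' deposited table (log2 change -1.38, unadjusted p = 0.371, standard error 1.79). Adamts10, a protease linked to fibrillin microfibrils, had 2.31 TPM in Bub1 cKO and 5.14 TPM in Ctrl in the authors' deposited table (unadjusted p = 0.52). Adamts13, the protease that cuts von Willebrand factor, had 1.15 TPM in Bub1 cKO and 1.61 TPM in Ctrl in the authors' deposited table (unadjusted p = 0.626). The Bub1 cKO value of Adamtsl4 was 0.337 times its Ctrl value, but the interval of its test's own log2 change, -5.11 to 1.91, covers changes of either sign. Adamtsl5, another ADAMTS-like gene, had 1.77 TPM in Bub1 cKO and 1.12 TPM in Ctrl in the authors' deposited table, yet a statistic of -1.45. Its group values and its test thus point in opposite directions, with a deposited log2 change of 0.38 and a test's own change of -2.48. Opposite signs stood in 3 of the 47 members, the others being Mmp17 and Adamts4 with changes near 0, against 1519 of all 15982 genes.

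The statistics of the expressed members were spread over both directions. Of the 15, 6 were positive and 9 negative, and the median log2 change was -0.07 in the authors' deposited table. By class the medians were -0.26 for 5 ADAMs and -0.58 for 4 ADAMTS and ADAMTS-like genes in the authors' deposited table. These medians describe few genes, and the classes were not tested against each other.

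**Figure D4:**
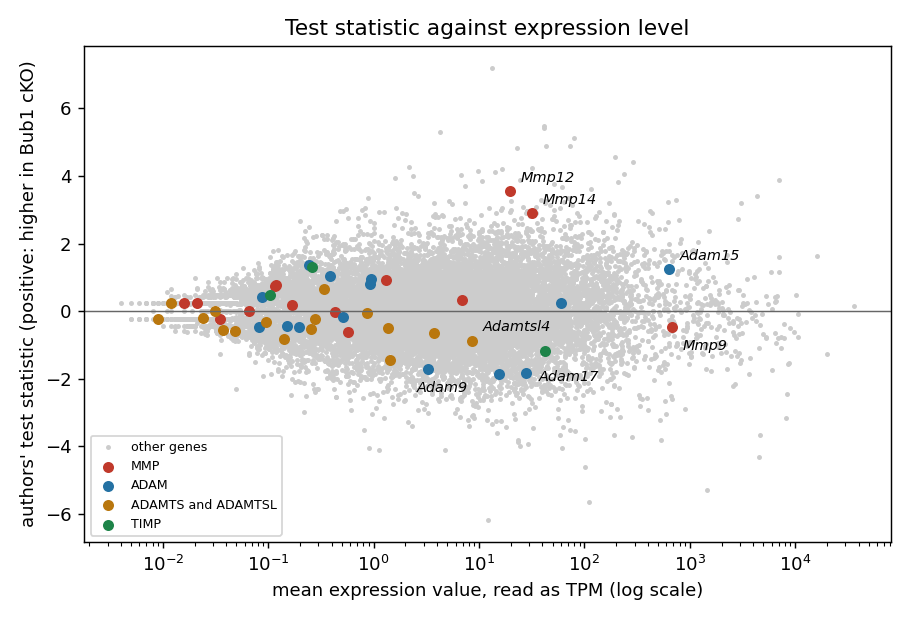
Test statistic of the authors against mean expression value on a log axis for all genes of the table, with the 47 members in colour by class (positive means higher in Bub1 cKO). Mmp12 and Mmp14 lie at the upper edge of the genes of their level, while Adam9, Adam17 and the members under 1 TPM lie inside the bulk.

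A mean of 1 TPM was not reached by 32 members. These were 9 MMPs, 9 ADAMs, 12 ADAMTS and ADAMTS-like genes, Timp3 and Timp4. Their values in the authors' deposited table reached at most 1.26 TPM in Bub1 cKO and 0.888 TPM in Ctrl. The highest were Adam28, with 1.26 TPM in Bub1 cKO and 0.619 TPM in Ctrl, and Adam22, an ADAM without protease activity, with 1.24 TPM in Bub1 cKO and 0.625 TPM in Ctrl in the authors' deposited table. In this set 3 members were listed at 0 in Bub1 cKO (Mmp3, Adamts14 and Adamtsl1) and 6 in Ctrl (Mmp2, Mmp16, Mmp24, Adam4, Adam33 and Adamts6). Their statistics were positive in 16 and negative in 16, and the smallest unadjusted p was 0.172, that of Adam4. Adam4 lies inside Cox16 on the same strand, which had 176 TPM in Bub1 cKO and 110.2 TPM in Ctrl in the authors' deposited table, and Adam1a overlaps Mapkapk5 likewise, so reads assigned to these 2 are uncertain. Other TIMPs, MMPs and ADAMs were not analysed here.

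Precision set what could be seen. The authors' standard error on the log2 scale was 0.135 to 0.463 for the 8 members with a mean of at least 10 TPM, 0.554 to 1.79 for the 7 between 1 and 10 TPM, and 0.757 to 4.08 for the 32 below. Its median for the 8 most abundant members was 0.207, against 0.315 for all genes of at least 10 TPM. The stromal proteases and inhibitors among the low members, such as Mmp2, Adamts5 and Timp3, were therefore not measured well enough for a statement on direction.

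**Figure D5:**
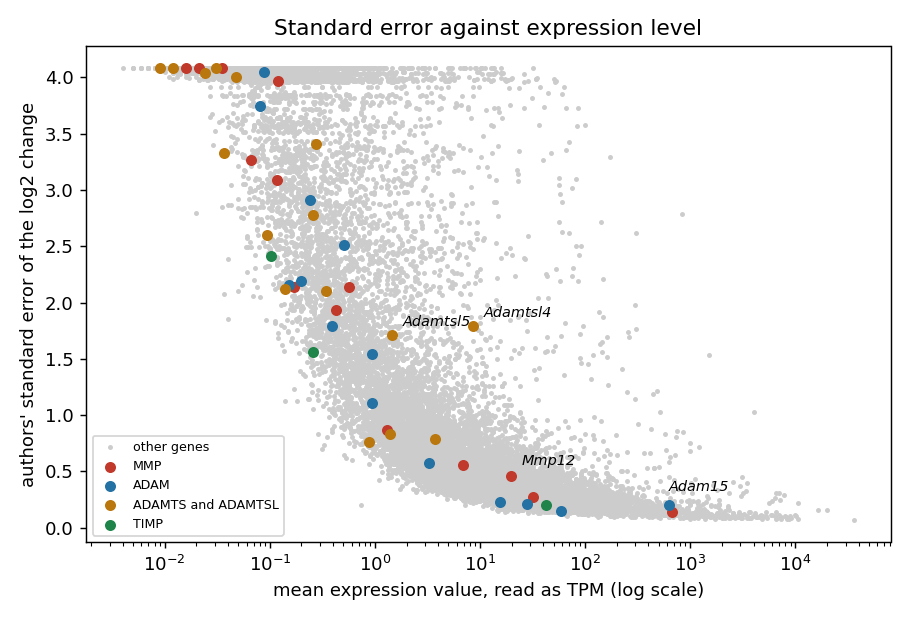
Standard error of the log2 change in the authors' deposited table against mean expression value on a log axis, for all genes and for the 47 members in colour by class. Errors run from 0.135 for the most abundant member to 4.08 for those under 1 TPM, and Adamtsl4 has a larger error, 1.79, than most genes of its level.

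Cell type markers were read beside these members. By adjusted p under 0.05, 1 macrophage marker was lower in Bub1 cKO (Lyz2). Higher were 1 neutrophil marker (Cxcr2) and 2 erythroid markers (Hbb-bs and Hbb-bt), and 0 osteoclast, stromal, endothelial, lymphoid or mast cell markers passed. Over all genes 0.181% passed. By unadjusted p under 0.05, 5 osteoclast markers were higher and 0 lower, and 1 macrophage marker was higher and 5 lower. Neutrophil and erythroid markers had 4 each higher and 0 lower, and the other marker lists had 0 in either direction. Over all genes the share was 4.81%. As lists were chosen with earlier results of these data known, these counts cannot show an excess. Macrophage markers, 12 of 12 in the table, had 10 negative and 2 positive statistics and a summed level of 1434 TPM in Bub1 cKO and 2905 TPM in Ctrl in the authors' deposited table, of which Lyz2 alone gave 762 TPM in Bub1 cKO and 2141 TPM in Ctrl. Osteoclast markers, 10 of 10 in the table, had 8 positive and 2 negative statistics and summed to 1697 TPM in Bub1 cKO and 1350 TPM in Ctrl in the authors' deposited table. Most of this sum was Ctsk (696 TPM in Bub1 cKO, 537 TPM in Ctrl) and Acp5 (639 TPM in Bub1 cKO, 531 TPM in Ctrl). Neutrophil markers, 11 of 12 in the table, all had positive statistics, but only 5 had a mean of at least 1 TPM. Those below had standard errors of 2.07 to 4.08, so their signs say little. The markers summed to 235 TPM in Bub1 cKO and 95.8 TPM in Ctrl in the authors' deposited table. Most of this was S100a9 (115 TPM in Bub1 cKO, 38.0 TPM in Ctrl) and S100a8 (92.8 TPM in Bub1 cKO, 41.9 TPM in Ctrl). Lcn2, Elane, Camp and Retnlg were listed at 0 in Ctrl. By its group values 1 neutrophil marker, Ltf, went the other way, with 6.74 TPM in Bub1 cKO and 12.3 TPM in Ctrl in the authors' deposited table. Erythroid markers, 5 of 8 in the table, also all had positive statistics and summed to 358 TPM in Bub1 cKO and 19.6 TPM in Ctrl in the authors' deposited table, with Alas2 listed at 0 in Ctrl. Stromal, fibroblast and osteoblast markers, 12 of 14 in the table, summed to 6.24 TPM in Bub1 cKO and 6.19 TPM in Ctrl in the authors' deposited table, with Thy1 at 0 in Bub1 cKO and Pdgfrb and Ibsp at 0 in Ctrl. Endothelial markers summed to 164 TPM in Bub1 cKO and 243 TPM in Ctrl in the authors' deposited table, nearly all of it Pecam1, which myeloid cells also express, and markers of lymphoid and mast cells summed to 0.058 TPM in each. The part of these shifts in the values of Mmp12, Mmp14, Mmp8 and the other members was not tested. Bub1 itself had 5.32 TPM in Bub1 cKO and 6.73 TPM in Ctrl in the authors' deposited table (adjusted p = 0.985). Which exons were deleted is unknown here, so these 3' tags do not check the labels.

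Genes that work with the members were then counted. The lists here and below were chosen with earlier results of these data known, so their counts cannot show an excess over all genes. Of 21 activators, docking partners and inhibitors of MMPs 16 were in the table, 1 passed the authors' adjusted p and rose, and 0 fell. Without adjustment p was under 0.05 for 4 with higher and 2 with lower values. Over all 15982 genes the shares were 0.181% by adjusted and 4.81% by unadjusted p. The genes of the list under 0.05 were all among its 12 at a mean of at least 1 TPM, a level at which the unadjusted share was 6.27%. The riser was Itgav, the integrin chain that can hold MMPs at the cell surface, with 394 TPM in Bub1 cKO and 183 TPM in Ctrl in the authors' deposited table (adjusted p = 0.013). Its partner chain Itgb3 had 12.0 TPM in Bub1 cKO and 8.20 TPM in Ctrl, and Cd44, a hyaluronan receptor that docks MMP9 and MMP14, had 72.5 TPM in Bub1 cKO and 56.6 TPM in Ctrl in the authors' deposited table (unadjusted p = 0.022 and 0.012). Klkb1, the plasma kallikrein gene, had 3.69 TPM in Bub1 cKO and 7.31 TPM in Ctrl in the authors' deposited table (unadjusted p = 0.011).

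ADAM partners and regulators, 23 of 24 in the table and 18 at a mean of at least 1 TPM, had 0 members past the adjusted p. Unadjusted p was under 0.05 for 1 with a higher and 1 with a lower value in the authors' deposited table. The share was 4.81% of all genes and 6.27% of those at a mean of at least 1 TPM. Tspan5, a tetraspanin that guides ADAM10, had 6.65 TPM in Bub1 cKO and 2.72 TPM in Ctrl in the authors' deposited table (unadjusted p = 0.026). Pcsk7, a proprotein convertase, had 3.32 TPM in Bub1 cKO and 7.54 TPM in Ctrl in the authors' deposited table (unadjusted p = 0.041). Rhbdf1, an iRhom that carries ADAM17 to the surface, had 0.142 TPM in Bub1 cKO and 1.69 TPM in Ctrl, and the convertase Pcsk5 was listed at 0 in Bub1 cKO and had 0.272 TPM in Ctrl in the authors' deposited table (unadjusted p = 0.088 and 0.054).

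Shedding substrates of myeloid cells, 30 of 35 in the table and 23 at a mean of at least 1 TPM, had 0 members past the adjusted p. Unadjusted p was under 0.05 for 3 with higher and 4 with lower values in the authors' deposited table. The share was 4.81% of all genes and 6.27% of those at a mean of at least 1 TPM. The smallest p was that of Hbegf, a membrane-bound growth factor released by ADAMs, with 2.97 TPM in Bub1 cKO and 0.263 TPM in Ctrl in the authors' deposited table (unadjusted p = 0.002, adjusted p = 0.373). Cxcl16, a membrane chemokine cut by ADAM10, had 26.5 TPM in Bub1 cKO and 47.0 TPM in Ctrl, and Icam1, an adhesion molecule, had 8.49 TPM in Bub1 cKO and 15.1 TPM in Ctrl in the authors' deposited table (unadjusted p = 0.010 and 0.013). Cd44, also on this list, is given above, and the remaining genes under 0.05 were Csf1r, Vcam1 and Lrp1.

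Matrix substrates were mostly low, with 22 of 26 in the table and 9 at a mean of at least 1 TPM. Past the adjusted p, 1 gene of the list fell and 0 rose in the authors' deposited table, against 0.0688% of all genes lower and 0.113% higher. This was Vcan, the proteoglycan versican that ADAMTS proteases cut, with 12.3 TPM in Bub1 cKO and 36.7 TPM in Ctrl in the authors' deposited table (log2 change -1.50, adjusted p = 0.041). Lamc1, a laminin chain, had 6.29 TPM in Bub1 cKO and 20.4 TPM in Ctrl in the authors' deposited table (unadjusted p = 0.00085, adjusted p = 0.222). By unadjusted p under 0.05 the list had 2 genes lower, Vcan and Lamc1, and 0 higher. The share was 4.81% of all genes and 6.27% of those at a mean of at least 1 TPM. Thbs1 and Thbs2, the thrombospondins next in order of p, were below 0.4 TPM in both genotypes.

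Among other proteases and inhibitors of bone matrix, 23 of 26 in the table and 18 at a mean of at least 1 TPM, 0 passed the adjusted p. Unadjusted p was under 0.05 for 3 with higher and 3 with lower values in the authors' deposited table. The share was 4.81% of all genes and 6.27% of those at a mean of at least 1 TPM. Ctsk, the main collagenase of osteoclasts, had 696 TPM in Bub1 cKO and 537 TPM in Ctrl, at a level like that of Mmp9, and the phosphatase Acp5 had 639 TPM in Bub1 cKO and 531 TPM in Ctrl in the authors' deposited table (unadjusted p = 0.008 and 0.015). The lysosomal proteases Ctsc and Ctsl had 15.2 and 139 TPM in Bub1 cKO, against 29.0 and 179 TPM in Ctrl in the authors' deposited table (unadjusted p = 0.001 and 0.007).

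Transcription factors of the AP-1, NFAT and NF-κB families were listed because they are known to act on MMP genes, and Mitf and Spi1, of other families, were added. This list too was chosen with earlier results of these data known, so its counts cannot show an excess. Of its factors 16 of 16 were in the table, 14 of them at a mean of at least 1 TPM. Of these, 2 passed the adjusted p of the authors' deposited table and rose, and 0 fell. Unadjusted p was under 0.05 for 4 with higher and 0 with lower values. The shares were 0.181% of all genes by adjusted and 4.81% by unadjusted p, or 6.27% by unadjusted p at a mean of at least 1 TPM. Fosl2, an AP-1 subunit, rose to 37.9 TPM in Bub1 cKO, against 25.3 TPM in Ctrl (log2 change 0.56, adjusted p = 0.022), and Jdp2, an AP-1 family member that osteoclasts need, rose to 239 TPM in Bub1 cKO, against 149 TPM in Ctrl in the authors' deposited table (adjusted p = 0.007). Nfatc1, the main osteoclast factor, had 73.3 TPM in Bub1 cKO and 48.7 TPM in Ctrl, and the AP-1 subunit Jund had 58.9 TPM in Bub1 cKO and 41.4 TPM in Ctrl in the authors' deposited table (adjusted p = 0.094 and 0.805). Their binding at the promoter windows shown above was not measured.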

How the data were processed

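The files hold 1 table, the authors' comparison of Bub1 cKO with Ctrl, 3 libraries each. Per the file headers it was made with RaNA-seq, a web service. The sources used here name no aligner, genome build, annotation or test. The expression columns were deposited with no unit and read as TPM, since they sum to 999954 (Bub1 cKO) and 999891 (Ctrl). For 15982 genes, log2((Bub1 cKO + 1)/(Ctrl + 1)) gives the authors' log2 change within 0.002, which makes changes of low genes look smaller. The authors' test supplies the deposited statistic and standard error (taken as scores), and the p-value and adjusted p-value as deposited. Multiplying these gives the test's own log2 change, on the assumption that the statistic is a change over its standard error. Its 95% interval adds and subtracts 1.96 standard errors. Directions follow the statistic. Depth is unknown.

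Members were chosen by symbol, and members and lists were chosen with earlier results of these data known. Every member with a mean of at least 1 TPM is named, and up to 4 genes of each list by smallest p. Of 15982 genes 15910, and all 47 members, matched GENCODE M21 by gene ID. Benjamini-Hochberg adjustment was repeated over genes of at least 1 TPM (Python 3.11.15, pandas 2.3.3, scipy 1.17.1) and tested on simulated data. The alternatives tried were pseudocounts of 0.1 and 5, other filters, centring and a threshold of 0.1.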

Additional observations from a re-analysis of the deposited data

How the results depend on the processing

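No paired analysis was possible because the table has no columns per library, and for the same reason leaving out a replicate was not run. The count of members past the adjusted p stayed at 0 when p was re-adjusted over the genes at or above 1 TPM and with a threshold of 0.1. With both together, an alternative chosen after seeing the data, it was 1 (Mmp12, higher). The 2 members at an unadjusted p under 0.05 both average above 5 TPM. Filters at a mean of 1 and of 5 TPM could therefore not lower their count. The median log2 change of the members, -0.07, was -0.23 with the test's own change. For MMPs the median of 0.44 was 0.74 with a pseudocount of 0.1, 0.16 with 5, 0.057 with no filter and 0.80 with the test's own change. For ADAMs the median of -0.26 was -0.0475 with no filter, -0.12 at a mean of at least 5 TPM and -0.39 with the test's own change. For ADAMTS and ADAMTS-like genes the median of -0.58 was -0.78 with a pseudocount of 0.1, -0.29 with 5, -0.072 with no filter, -1.38 at a mean of at least 5 TPM (1 gene) and -1.05 with the test's own change. For TIMPs it was -0.24 (Timp2 alone) and 0.11 with no filter. Of 60 recomputed log2 changes of the 15 named members 59 kept their sign, but most of these could not have changed it. A pseudocount cannot reverse a sign, and centring subtracted only a median of -0.008, smaller in size than each of the 15 changes. The setting that could, the test's own change, reversed 1 of the 15, Adamtsl5, from 0.38 to -2.48. The cause was not tested. Mmp12 had 1.64 in place of 2.58 in that setting, and 1.99 with a pseudocount of 5. Counts of the other lists were within 1.5 times their value in both alternatives. The unknown depth and the lack of values per library limit all values under 1 TPM.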
